A study of Mus musculus with 12 samples.

Results

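Smooth muscle contractile genes were measured in cultured mouse hepatic stellate cells with and without the β receptor for platelet-derived growth factor. The set holds 10 genes: Acta2, Tagln, Cnn1, Actg2, Myh11, Myl9, Tpm1, Tpm2, Lmod1 and Mylk. They were taken by symbol in the platform's probe annotation, which gives them 24 of 45281 probes and 10 of 19057 genes with a symbol. All 10 were among the 13300 genes tested, each represented by its brightest probe, and 19 of their 24 probes passed the detection filter. RNA was hybridised to 12 single-colour Illumina arrays, 3 for each of 4 groups. These were KO cells with PDGF-B at 10 ng/ml, KO cells with albumin vehicle, WT cells with PDGF-B and WT cells with vehicle. Every mouse carried β-PDGFR fl/fl alleles on a 129S4/SvJae background, crossed to an FVB line with a GFAP-Cre transgene. KO cells were GFAP Cre positive and WT cells were GFAP Cre negative, so the controls carried the floxed gene as well. Deletion depends on the GFAP promoter, and the share of cells in which it took place was not measured here. The cells were released with pronase and collagenase, purified on Percoll, cultured in DMEM with 10% FBS and treated in serum-free DMEM, while the age of the mice and the length of treatment are not given in the labels. Each title holds a code (P524, P338 and P522 for KO, P11, P393 and P530 for WT) that 1 PDGF-B array and 1 vehicle array share. Such a pair is called a preparation below; its source, whether 1 animal, pooled animals or a culture, is not given in the labels.

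Hepatic stellate cells are the pericytes of the liver sinusoid. In culture or after injury they turn into myofibroblasts, which build the contractile apparatus of smooth muscle cells, and α-smooth muscle actin is the usual marker of that state. In this apparatus, filaments of smooth muscle actin, lined by tropomyosin and bound by calponin and transgelin, slide along filaments of smooth muscle myosin once myosin light chain kinase phosphorylates the regulatory light chain. Many of these genes are transcribed through serum response factor, which binds the CArG box, with coactivators of the myocardin family, and PDGF-B is known in vascular smooth muscle cells as a ligand that lowers them.

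RefSeq promoters (build GRCm38.p6, 250 bases before to 50 after the annotated start) were found for 7 of the 10 genes, and none was used for Tagln, Actg2 or Myh11. The stretches of 3 genes are shown, Myl9 and Acta2 for their CArG-type matches and Mylk as 1 of the 5 members' promoters without any, and no relation of these matches to the profiles was tested. Each covers positions -180 to -1 from the start, written 5′ to 3′ on the gene's strand. Capitals mark matches to a CArG box (CC, then 6 letters that are each A or T, then GG), to a CArG box with up to 1 other letter among the 6, and to CATTCC, the core bound by TEAD factors, each searched on both strands.
Acta2 (chr19:34255374-34255553, minus strand): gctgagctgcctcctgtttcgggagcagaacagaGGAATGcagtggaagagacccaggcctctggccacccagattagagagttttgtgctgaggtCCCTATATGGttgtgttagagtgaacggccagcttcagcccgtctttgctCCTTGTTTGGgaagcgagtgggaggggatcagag
Myl9 (chr2:156775284-156775463, plus strand): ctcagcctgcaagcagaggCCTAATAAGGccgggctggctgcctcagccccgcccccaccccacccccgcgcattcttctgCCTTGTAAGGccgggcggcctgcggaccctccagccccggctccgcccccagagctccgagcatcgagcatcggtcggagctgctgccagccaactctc
Mylk (chr16:34784770-34784949, plus strand): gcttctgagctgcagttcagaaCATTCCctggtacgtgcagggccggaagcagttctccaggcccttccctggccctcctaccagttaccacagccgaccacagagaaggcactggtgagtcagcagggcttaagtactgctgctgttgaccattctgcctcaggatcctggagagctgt
The Myl9 promoter held the full CArG box CCTAATAAGG at -161 to -152 and the near match CCTTGTAAGG at -99 to -90. In the Acta2 promoter the near matches were CCCTATATGG at -84 to -75 and CCTTGTTTGG at -34 to -25. A full CArG box was found in 1 of the 7 members' promoters and in 1.63% of 32851 promoters of the same length, and a full or near match in 2 of 7 and in 9.98%. CATTCC or its reverse complement was found in 4 of 7 (Lmod1, Tpm1, Mylk and Acta2) and in 14.7% of promoters, and TATAAA in 0 of 7 and in 13.6%. No match overlapped a match to another motif, apart from full CArG boxes, which are also counted among the near matches. The matches describe letters in these windows, and binding was not measured.

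The arrays had median probe intensities of 86.2 to 96.2, and 45.3% to 53.1% of probes lay above background. Values below are log2 intensities after background correction and quantile normalization, in which 1 unit is a doubling and a probe near background reads close to 6. Pdgfrb, the targeted gene, measured 7.07, 6.46 and 7.66 in the KO preparations P524, P338 and P522, against 6.74, 6.84 and 7.69 in the WT preparations P11, P393 and P530. The KO minus WT difference was -0.03 ± 0.29 (SE, limma adjusted p = 0.999), and because the position of its probe relative to the deleted part is not known here, this level does not check the genotype. Of 10 stellate cell markers, 7 were tested and 3 (Des, Pdgfra and Pdgfrb) were above background on all 12 arrays. Gfap was above background on 3 arrays, and Lrat, Lhx2 and Rgs5 did not pass the filter. Of 8 myofibroblast markers, 7 were above background on every array. Markers of macrophages (10 of 11 tested genes) and mesothelium (7 of 8) were above background on all arrays too. In RNA of whole cultures, fewer cells of a type and less RNA per cell cannot be told apart.

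Acta2 encodes α-smooth muscle actin. Its brightest probe read 13.88, 14.12 and 13.53 in KO cells with PDGF-B (P524, P338, P522) and 13.75, 14.02 and 13.52 in KO cells with vehicle, against 14.08, 13.91 and 14.05 in WT cells with PDGF-B (P11, P393, P530) and 13.97 to 14.05 in WT cells with vehicle. The 2 arrays of P522 were the lowest, and the other 10 ran from 13.75 (P524 with vehicle) to 14.12 (P338 with PDGF-B). Actg2, the γ-smooth muscle actin of visceral muscle, read 11.89, 9.89 and 10.03 in KO cells with PDGF-B and 11.83, 9.46 and 9.90 in KO cells with vehicle, against 10.74, 10.40 and 11.84 in WT cells with PDGF-B and 11.03, 10.00 and 11.66 in WT cells with vehicle. P524 among the KO preparations and P530 among the WT preparations were high, both with and without ligand, and the groups overlapped. The smooth muscle actins are closely related in sequence, and whether a probe of one also bound the other was not tested.

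Tagln, the actin-binding protein transgelin (SM22α), had values of 10.17, 8.79 and 8.17 in KO cells with PDGF-B and 10.08, 9.00 and 7.90 in KO cells with vehicle, against 8.87, 8.34 and 9.75 in WT cells with PDGF-B and 9.22, 8.27 and 9.59 in WT cells with vehicle. It was highest in P524 and lowest in P522, both KO. Cnn1, calponin 1, which binds actin and slows the myosin ATPase, stayed between 5.83 and 6.09 on all 12 arrays. It was above background on 3 of the 6 KO arrays and 4 of the 6 WT arrays, so its differences are those of a probe near background.

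Myh11, the smooth muscle myosin heavy chain, read 8.44, 6.38 and 6.53 in KO cells with PDGF-B and 8.60, 6.70 and 6.38 in KO cells with vehicle, against 7.08, 6.77 and 7.57 in WT cells with PDGF-B and 7.17, 6.70 and 7.70 in WT cells with vehicle. For Myl9, the regulatory light chain that myosin light chain kinase phosphorylates, the values were 11.47, 9.19 and 9.38 in KO cells with PDGF-B and 11.50, 9.36 and 9.34 in KO cells with vehicle, against 10.27, 9.77 and 11.50 in WT cells with PDGF-B and 10.42, 9.54 and 11.37 in WT cells with vehicle. Both genes were high in P524 and next highest in P530, and low in P338 and P522. Mylk, the kinase itself, read 11.38, 9.53 and 10.03 in KO cells with PDGF-B and 11.15, 9.11 and 9.94 in KO cells with vehicle, against 11.62, 10.37 and 10.72 in WT cells with PDGF-B and 11.44, 10.26 and 10.77 in WT cells with vehicle. It was highest in the WT preparation P11, and its other kept probes, ILMN_1219471 and ILMN_2662602, were likewise highest in P11 and lowest in P338.

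Tpm1 encodes α-tropomyosin, which lies along actin filaments. Its values were 13.45, 12.58 and 12.22 in KO cells with PDGF-B and 13.47, 12.63 and 11.91 in KO cells with vehicle, against 12.83, 12.34 and 13.02 in WT cells with PDGF-B and 12.71, 12.27 and 13.32 in WT cells with vehicle. Tpm2, β-tropomyosin, read 11.92, 10.38 and 9.69 in KO cells with PDGF-B and 12.02, 10.67 and 9.83 in KO cells with vehicle, against 10.99, 10.71 and 11.65 in WT cells with PDGF-B and 10.82, 10.62 and 11.49 in WT cells with vehicle. Its other kept probes, ILMN_2482209 and ILMN_2787172, were above background on 6 and 4 arrays and say little about its level. Lmod1, leiomodin 1, which nucleates actin filaments in smooth muscle, read 7.95, 6.51 and 6.40 in KO cells with PDGF-B and 7.95, 6.88 and 6.38 in KO cells with vehicle, against 7.23, 6.52 and 7.68 in WT cells with PDGF-B and 6.84, 6.53 and 8.05 in WT cells with vehicle. By their brightest probes these 3 genes of the actin filament had P524 at the top and P522 at the bottom, with P530 in the second place. The other kept Tpm1 probe, ILMN_2518346, was above background on all 12 arrays and highest in P524. Its lowest preparation was P393, at 10.72 with PDGF-B and 10.59 with vehicle, against 10.67 on each P522 array.

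**Figure D1:**
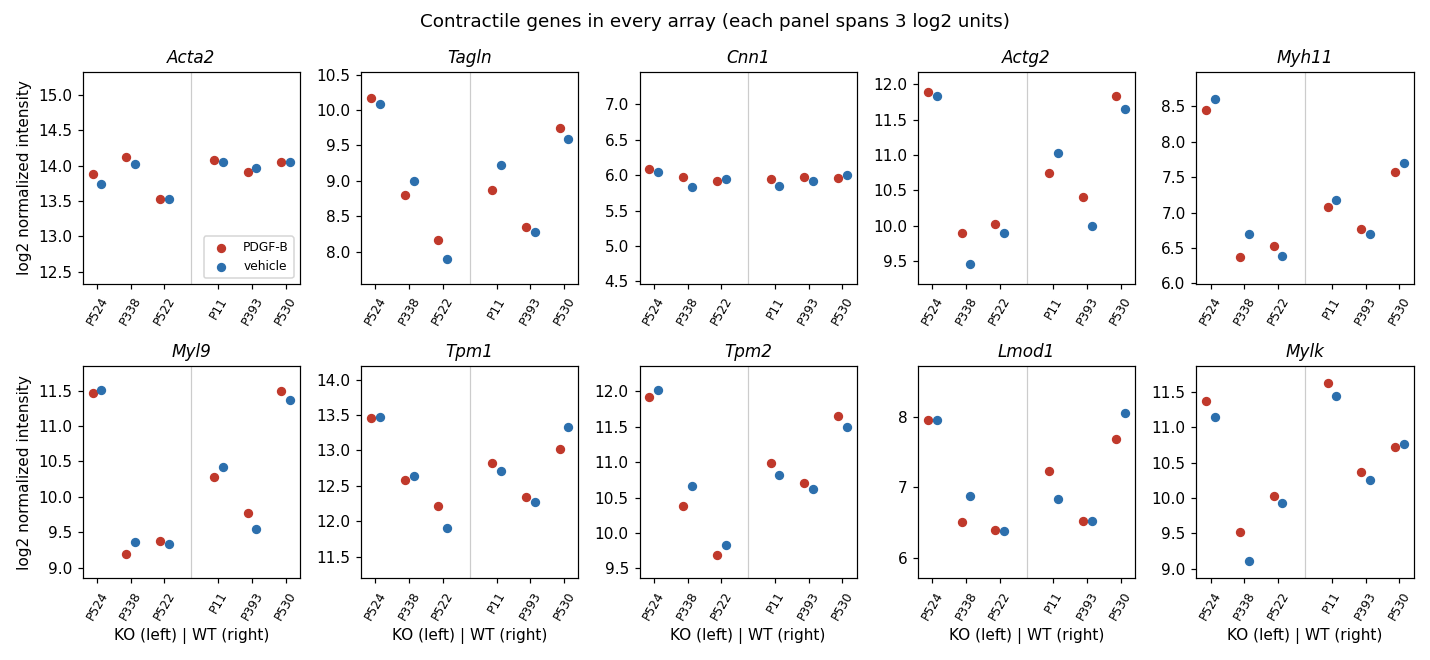
Log2 normalized intensity (vertical axis) of each of the 10 genes on all 12 arrays, by preparation, with KO preparations left of the grey line and WT preparations right of it. Red points are PDGF-B arrays and blue points vehicle arrays, and every panel spans 3 log2 units. The points of a preparation lie close together, while P524 and P530 stand above P338, P522 and P393 for most genes and Cnn1 is flat near 6.

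Acta2 gave different pictures by different probes. On the untransformed scale the brightest probe (ILMN_2693895) ran from 9697 to 17551, 1.81-fold, and all arrays but those of P522 lay between 16193 and 17551. It stood at 79.8% to 93.9% of the highest intensity of its array in the other 5 preparations, with 1 to 19 probes brighter than it, and at 56.1% and 56.7% in P522. Acta2 probe ILMN_2710354 ran from 2521 to 13597 (5.39-fold), ILMN_2923445 from 1868 to 16412 (8.78-fold) and ILMN_2710353 from 1906 to 11078 (5.81-fold). The dim probe ILMN_1237242 ranged over 2.46-fold at intensities of 84.4 to 207.8. All 4 of these probes were lowest in P522 and high in P524 and P530, where the brightest probe was flat. After normalization their preparation means spanned 3.63-, 5.92-, 3.87- and 2.61-fold in that order, against 1.45-fold for the brightest probe. The highest reading of an array lay between 17088 and 20422, and the scanner's upper limit is not known here. Whether the brightest probe was compressed near the top of the scale was not tested, and the probes do not give 1 range for Acta2 RNA.

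**Figure D2:**
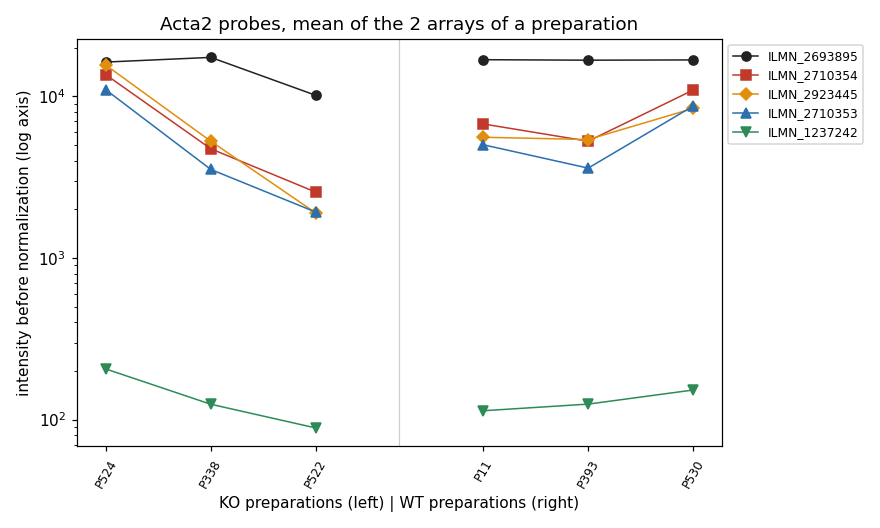
Intensity before normalization (log axis) of the 5 kept Acta2 probes, as the mean of the 2 arrays of each preparation, with KO preparations on the left and WT preparations on the right. The brightest probe (black) lies flat in 5 preparations and lower in P522, while the other 4 probes are lowest in P522 and have higher means in P524 and P530.

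The deletion of the receptor was compared between genotypes with vehicle, with PDGF-B and averaged over both. None of the 10 genes passed the test in any of these comparisons (limma, Benjamini-Hochberg adjusted p over 13300 genes, threshold 0.05), against 0.015% of all genes in each. Mylk had the widest gap, with 10.19 ± 0.99 in KO preparations and 10.86 ± 0.62 in WT preparations (SD, n = 3), an averaged log2 difference of -0.67 ± 0.43 (SE, 95% interval -1.63 to 0.28, adjusted p = 0.994). Actg2 averaged 10.50 ± 1.19 in KO and 10.94 ± 0.78 in WT preparations, a difference of -0.45 (95% interval -1.62 to 0.72). Myl9 followed with 10.04 ± 1.25 in KO against 10.48 ± 0.90 in WT preparations, a difference of -0.44 (95% interval -1.70 to 0.82). Acta2 had the smallest p of the members, at 13.80 ± 0.27 in KO and 14.02 ± 0.07 in WT preparations. Its difference was -0.21 ± 0.11 (SE, limma adjusted p = 0.994), and by its probe next in brightness it was -0.37 ± 0.44. Myh11 and Tagln measured 0.01 and 0.01 apart, with intervals of -1.02 to 1.04 and -1.02 to 1.05. A change of at least about 1 log2 unit in either direction was thus within the error. These intervals count the arrays of a preparation as separate and are too narrow for 3 preparations per genotype. Among preparations the SD of Myh11 was 1.17 in KO and 0.45 in WT, and that of Tagln 1.05 and 0.68.

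As a list, 3 members were higher and 7 lower in KO cells on average, with a median difference of -0.17 on the log2 scale, against a median of 0.01 over all genes tested, of which 55.7% were higher. With vehicle the members' median was -0.12 and with PDGF-B it was -0.18, and no member had an unadjusted p under 0.05 in any of the 3 comparisons. The KO and WT preparation means of 0 of 10 members were free of overlap, against 5.08% of genes. By brightest probes, the KO preparations of 8 of 10 members, all but Cnn1 and Mylk, spanned a range that contained all 3 WT preparations. This held for 35.3% of genes. For Acta2 the margin was small, with a highest mean of 14.07 in KO and 14.06 in WT preparations. It did not hold for Acta2 probe ILMN_2710354, highest in P530, or Tpm1 probe ILMN_2518346, lowest in P393, both WT preparations. These fits take the arrays of a preparation as independent, so their genotype errors are too small for genes that differ strongly between preparations. With the preparation as a random block the SE of the averaged Mylk difference was 0.42. That block uses 1 correlation shared by all genes. With preparation SDs of 0.99 in KO and 0.62 in WT (n = 3), this SE is likely too small for Mylk as well. Over the alternatives the averaged Mylk difference ran from -1.27 (array weights) to -0.24 (without P338). Actg2 ran from -1.13 (without P524) to -0.03 (without P338) and Myl9 from -1.16 (without P524) to 0.04 (without P530).

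PDGF-B was compared with vehicle in each genotype. No member passed the test in KO cells, in WT cells or averaged over both, and 0% of all genes tested passed in each comparison. In these comparisons 134, 78 and 116 genes had an unadjusted p under 0.05. This fit leaves out the pairing of arrays, so the spread between preparations enters its error and these counts do not measure the response. The paired fit also called 0% of genes in each comparison. The members' median log2 change with PDGF-B was 0.05 in KO cells, 0.02 in WT cells and 0.01 on average, within the range of -0.18 (Tpm2 in KO cells) to 0.24 (Mylk in KO cells). Acta2 measured 13.84 ± 0.30 with PDGF-B and 13.76 ± 0.25 with vehicle in KO cells, and 14.01 ± 0.09 with PDGF-B and 14.02 ± 0.04 with vehicle in WT cells (SD, n = 3). Its change was 0.08 (95% interval -0.26 to 0.42) in KO cells and -0.01 (95% interval -0.35 to 0.33) in WT cells. These narrow intervals belong to the probe near the top of the scale, and Acta2 probe ILMN_2710354 gave 0.03 ± 0.62 in KO cells and -0.11 ± 0.62 in WT cells (SE). Averaged over genotypes, the change was 0.04 by the brightest Acta2 probe and -0.04 by each of ILMN_2710354, ILMN_2923445 and ILMN_2710353, so its sign depended on the probe. Within preparations the arrays are paired, and the paired fit gave narrower intervals. Averaged over genotypes that fit gave 0.01 for Tagln (95% interval -0.16 to 0.18), -0.08 for Myh11 (-0.22 to 0.06), 0.01 for Myl9 (-0.12 to 0.13) and 0.02 for Tpm1 (-0.13 to 0.17).

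By its brightest probe Mylk was higher with PDGF-B in 5 of 6 preparations. The differences were 0.22, 0.42 and 0.09 in the KO pairs P524, P338 and P522. They were 0.19, 0.11 and -0.05 in the WT pairs P11, P393 and P530. The paired fit gave an average change of 0.16 ± 0.05 (SE), which did not pass the adjustment over all genes (limma adjusted p = 0.668). The lowest paired adjusted p of a member in KO cells was 0.690, for Mylk at 0.24 ± 0.08. By Mylk probe ILMN_1219471 the change was 0.09 in KO and 0.25 in WT cells, and by ILMN_2662602 it was 0.03 and 0.31. The brightest probe gave 0.24 in KO and 0.08 in WT cells, so which genotype changed more depended on the probe. Averaged over genotypes the other probes gave 0.17 each, and both were lower with PDGF-B in P524 and in P11. Whether the response depended on genotype was tested as an interaction. No member passed, nor did any of the 13300 genes, without or with the pairing of arrays (0% called in each fit). Without the pairing, 82 genes had an unadjusted p under 0.05. By brightest probes the differences between the genotypes' responses ran from -0.31 (Tpm2) to 0.16 (Mylk). For Mylk, ILMN_1219471 gave -0.16 and ILMN_2662602 gave -0.29, so the sign of its difference depended on the probe. Tpm2 was the 1 of 10 members with all 3 KO pairs on one side of 0 and all 3 WT pairs on the other, a pattern found in 2.86% of genes.

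**Figure D3:**
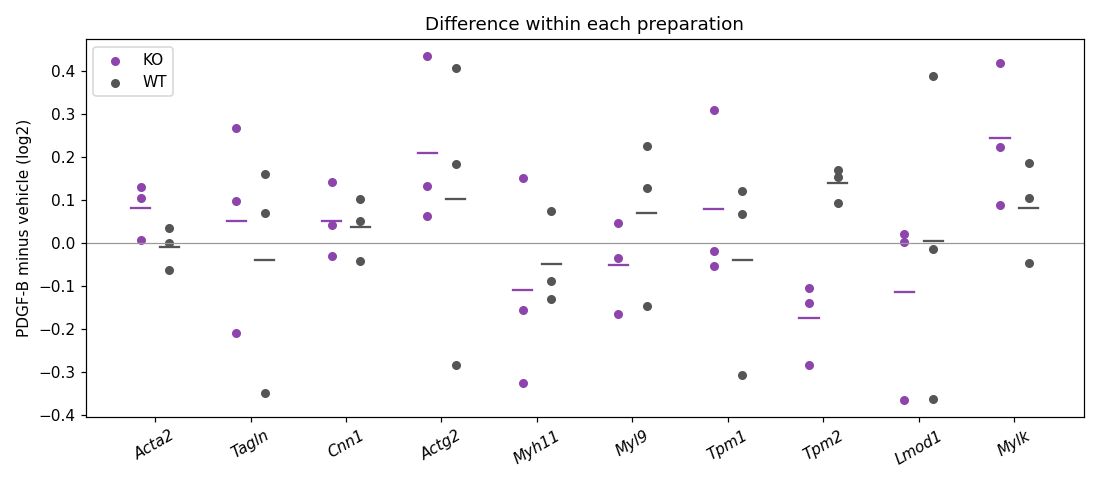
PDGF-B minus vehicle log2 difference within each preparation (vertical axis) for the 10 genes, with the 3 KO pairs in purple on the left and the 3 WT pairs in grey on the right of each position. Short bars are the means of 3 pairs. Most genes have pairs on both sides of 0, and Tpm2 has its KO pairs below 0 and its WT pairs above 0.

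Nearly all members differed between preparations of one genotype. In limma's moderated F test over the 3 preparations of each genotype, with the ligand effect as a term, 9 of 10 members passed (adjusted p under 0.05), against 45.6% of all genes tested. Cnn1 was the exception, with an adjusted p of 0.379. The spread between the paired arrays is the error in this test, so it shows that preparations differ beyond the spread within them and says nothing of genotype. The adjusted p was 1.73e-07 for Myl9 and for Tpm2, 5.53e-07 for Mylk, 8.02e-07 for Myh11, 2.22e-06 for Actg2 and 2.96e-06 for Tagln. It was 2.14e-05 for Lmod1, 2.20e-05 for Tpm1 and 0.00171 for Acta2.

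In size, the highest preparation exceeded the lowest 4.64-fold for Myl9, 4.63-fold for Mylk, 4.62-fold for Tpm2, 4.55-fold for Actg2, 4.26-fold for Tagln and 4.18-fold for Myh11. Lmod1 spanned 2.95-fold, Tpm1 2.64-fold, Acta2 1.45-fold by its brightest probe and Cnn1 1.12-fold. The members' median range was 2.08 log2 units, or 4.22-fold, against 0.33 log2 units, or 1.26-fold, over all 13300 genes. Tpm1, Lmod1 and the 6 genes above 4-fold exceeded at least 95.5% of all genes in range. P524 was the highest preparation for 8 members, all but Mylk (P11) and Acta2 by its brightest probe (P338). Of the other kept Acta2 probes, ILMN_2923445, ILMN_2710353 and ILMN_1237242 were highest in P524, ILMN_2710354 in P530, and all 4 were lowest in P522. By brightest probes the lowest was P522 for Acta2, Tagln, Myh11, Tpm1, Tpm2 and Lmod1, P338 for Actg2, Myl9 and Mylk, and P11 for Cnn1. Both ends of this order lay within the KO group. P524 on top with P522 at the bottom held for 5 of 10 members by brightest probe (Tagln, Myh11, Tpm1, Tpm2 and Lmod1), against 12.4% of genes. Tpm1 probe ILMN_2518346 had P393 at the bottom instead.

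Leaving out a preparation, with both its arrays, left 8 or 9 of 10 members past the threshold. Acta2 was the one lost, by its brightest probe, with adjusted p = 0.0595 without P338 and 0.0701 without P522. By its other probes, tested each on its own over all kept probes, the adjusted p was 3.96e-07 for ILMN_2710354, 4.43e-07 for ILMN_2923445, 5.89e-06 for ILMN_2710353 and 3.92e-06 for ILMN_1237242.

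**Figure D4:**
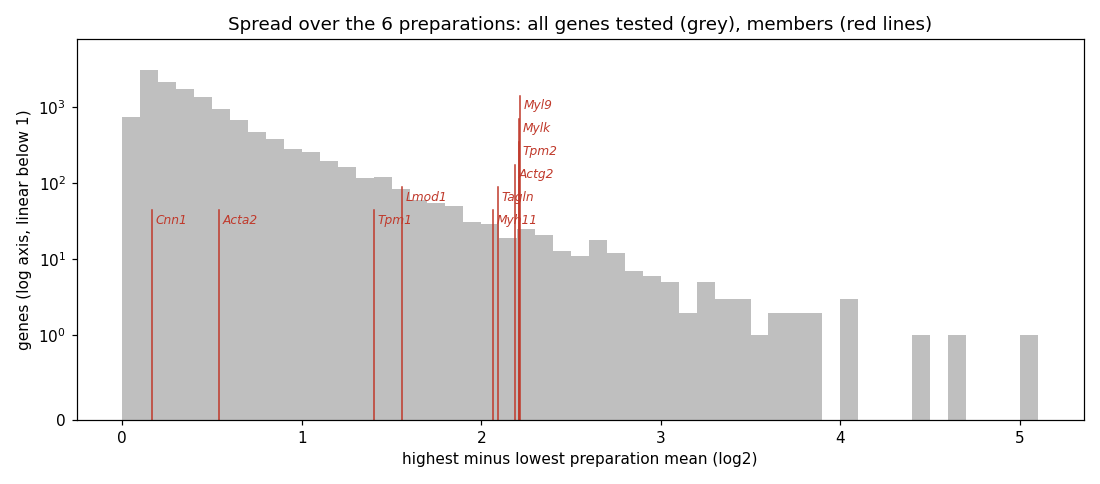
Number of genes (log axis) by the highest minus the lowest preparation mean on the log2 scale, for all 13300 genes tested in grey, with a red line at each contractile gene. The height of a red line only makes room for its name. Cnn1 and the brightest Acta2 probe, the one plotted, lie among most genes, and the other 8 lie beyond 1.40, where few genes are found.

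Over the 12 arrays, which include pairs that share a preparation, 7 members followed one profile. The correlation of a member with the mean of the other members, a description over these arrays, was 0.97 for Myl9, 0.95 for Actg2 and for Myh11, 0.94 for Tpm2, Lmod1 and Tpm1, and 0.92 for Tagln. Mylk (0.68) and Cnn1 (0.63) followed it less closely and Acta2 by its brightest probe least (0.25). The other Acta2 probes correlated with the profile at 0.97 (ILMN_2710354), 0.93 (ILMN_2923445), 0.96 (ILMN_2710353) and 0.91 (ILMN_1237242). The closest pair was Actg2 and Myl9 (r = 0.98), followed by Tagln and Tpm1 (r = 0.97).

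The 5 genes outside the set had the profile most like it, by Pearson correlation over the 12 arrays. Csrp1, a LIM domain protein of smooth muscle and other actin-rich cells, led with r = 0.98, at 11.60, 10.58 and 10.43 in the KO preparations P524, P338 and P522 and 11.03, 10.73 and 11.53 in the WT preparations P11, P393 and P530. Gnl3l, a nucleolar GTPase, Wdr47, a WD repeat protein, Eno3, the muscle enolase, and Hsd11b2, which inactivates glucocorticoids, followed with r = 0.96 each. In all, 41 of 13290 other genes (0.309%) had r above 0.9 and 786 (5.91%) above 0.7.

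Markers of other cell types moved over the same preparations. The summed intensity of 11 macrophage markers was 25200 in P524, against 40099 to 47681 in the other 5 preparations. By genotype the range was 25200 to 47681 in KO and 40099 to 46289 in WT preparations. Mrc1, the mannose receptor of macrophages, read 8.12 in P524 and 9.57 to 10.55 in the others. The summed intensity of 8 mesothelial markers was 1906 in P522, against 6884 to 15438 in the others, with 1906 to 15438 in KO and 6884 to 8621 in WT preparations. Upk3b, a uroplakin of mesothelial cells, was 9.32 in P522 and 10.80 to 12.53 elsewhere. P338, low in most contractile genes, had a mesothelial sum of 14069, and P530, high in most of them, had 6884. The 2 arrays of P530 differed in this sum, with 4587 with PDGF-B and 9182 with vehicle. The part of these cells in the contractile differences was not tested.

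The 7 tested stellate markers summed to 575 in P522 and 759 to 989 in the other preparations, with 575 to 989 in KO and 759 to 889 in WT. Des was low in P522, at 7.26 against 8.13 to 9.48 in the others, while Pdgfra and Pdgfrb read 8.24 and 7.66 in P522, above their 7.79 and 7.07 in P524. The mean log2 level of the 7 genes was 6.76 in P522 and 6.80 or more in the others. The 8 myofibroblast markers, which include Acta2 and Tagln, summed to 24140 (P522) to 29229 (P524) in KO preparations. In WT preparations they summed to 23672 (P11) to 34451 (P530), so P522 was not the lowest. Timp1 and Col1a2 read 12.44 and 8.24 in P522, above their 12.01 and 7.77 in P524. Acta2, Tagln, Col1a1, Col3a1 and Lox were higher in P524, and Postn was above background on 3 arrays only. Markers of vascular smooth muscle and pericytes, which include Myh11, Cnn1 and Actg2, summed to 1217 to 5011 in KO and 1542 to 3995 in WT preparations. Actg2 was the brightest of them in every preparation, so the sum largely follows a member of the set. Within that list Mcam, an adhesion molecule of vascular mural and endothelial cells, read 8.14 in P524 and 6.11 in P522, and Smtn and Notch3 were also higher in P524. Cspg4, above background on 6 arrays, went the other way, with 5.97 in P524 and 6.42 in P522. Kcnj8 stayed between 6.03 and 6.09. Myocd, the coactivator myocardin, stayed between 5.91 and 6.04, with 8 of 12 arrays above background. Portal fibroblast markers summed to 4805 to 7946 in KO and 3204 to 7952 in WT preparations, a sum that largely follows Fbln2, the brightest of them in every preparation. Thy1 was highest in P522, at 10.37 against 7.73 to 9.65 in the others, while Fbln2 and Msln were lower in P522 than in P524. Endothelial markers were low, at 131 to 412 in KO and 129 to 516 in WT preparations, and of 7 hepatocyte markers only Ttr and Serpina1a passed the filter.

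**Figure D5:**
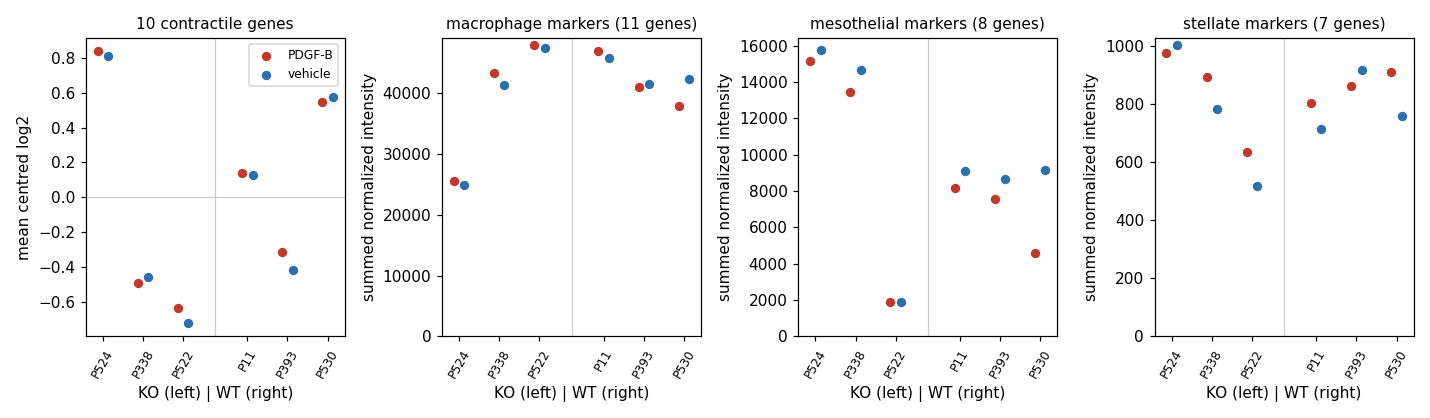
The 4 panels cover the 6 preparations, KO left of the grey line and WT right of it, with PDGF-B arrays in red and vehicle arrays in blue: the mean centred log2 level of the 10 contractile genes, then the summed normalized intensity of 11 macrophage, 8 mesothelial and 7 stellate markers. P524 is highest in contractile genes and lowest in macrophage markers, and P522 is lowest in contractile and mesothelial genes. The low stellate sum of P522 goes with its low Des.

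Related lists showed how far the differences between preparations extended. None of their genes passed in the averaged genotype, averaged ligand or interaction tests, against 0.015%, 0% and 0% of all genes. Of 37 other contractile and cytoskeletal genes listed, 32 were tested and 26 differed between preparations of one genotype, against 45.6% of all genes tested. A correlation above 0.7 with the contractile profile was found for 18 of the 32. The smallest p-values were those of Des, Smtn and Pdlim7. Des, the intermediate filament protein desmin, read 9.48, 9.21 and 7.26 in the KO preparations P524, P338 and P522, against 8.13, 8.35 and 9.08 in the WT preparations P11, P393 and P530 (limma F test, adjusted p = 1.57e-07). Smtn, smoothelin of contractile smooth muscle, read 9.52, 8.54 and 7.36 in KO and 8.03, 8.10 and 8.44 in WT preparations (adjusted p = 4.72e-06). Pdlim7, a PDZ-LIM protein of actin filaments, had its highest value in P524 (11.15) and its lowest in P522 (9.85).

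Relatives of the members among the actins, calponins, tropomyosins and myosins gave 15 of 18 tested genes that differed between preparations, against the same 45.6%, led by Myh10, Myl1 and Myl12a. The median correlation with the contractile profile was 0.14 in this list, against 0.71 among the other contractile genes. Myh10, a non-muscle myosin heavy chain, read 8.64, 8.18 and 6.90 in the KO preparations P524, P338 and P522, against 7.98, 7.24 and 8.14 in the WT preparations P11, P393 and P530. Myl1, a light chain of skeletal muscle, was high in P338 alone, at 7.45, against 5.83 to 6.07 elsewhere. In the genotype comparison the smallest p of the 4 lists was that of Acta1, skeletal α-actin, at 8.67, 8.10 and 8.53 in the KO preparations P524, P338 and P522, against 7.40, 6.92 and 7.51 in the WT preparations P11, P393 and P530. The groups did not overlap, as for 5.08% of genes, and the difference of 1.16 ± 0.17 (SE) did not pass (limma adjusted p = 0.164). Actb, cytoplasmic β-actin, spanned 1.46-fold and Tagln2, the transgelin of non-muscle cells, 1.18-fold (adjusted p = 0.798), as genes chosen after their values were seen.

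Among regulators of the serum response factor and myocardin system, 14 of 25 tested genes differed between preparations of one genotype, a share near the 45.6% of all genes. Gata6, a transcription factor of vascular smooth muscle and of mesothelium, read 10.83, 10.05 and 7.59 in the KO preparations P524, P338 and P522, against 9.81, 9.96 and 9.59 in the WT preparations P11, P393 and P530 (limma F test, adjusted p = 2.25e-07). Mef2c, a MADS box factor, ran the other way, with 6.95 in P524, 8.87 in P522 and a correlation of -0.72 with the contractile profile. Klf4, known in vascular smooth muscle for repressing contractile genes, spanned 1.78-fold and had a correlation of -0.10. Srf itself, named here after its values were seen, spanned 1.57-fold (adjusted p = 0.00769) with a correlation of 0.78, while the probes of its coactivators Mrtfa (6.04 to 6.17) and Mrtfb (5.97 to 6.07) read near background, where a change in RNA may not be seen.

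Contractile signalling genes gave 11 of 19 that differed between preparations, also near the 45.6% of all genes, with a median range of 0.38 log2 units. Ednrb, an endothelin receptor, spanned 10.2-fold, with 6.21, 9.34 and 7.46 in the KO preparations P524, P338 and P522, against 9.57, 8.85 and 8.41 in the WT preparations P11, P393 and P530. Its KO minus WT difference was -1.27 ± 0.62 (SE, limma adjusted p = 0.994). Agtr1a, an angiotensin II receptor, was 8.48 in P524 and 7.44 in P522, and 7.26 to 8.35 in WT preparations. Prkg1, the cGMP-dependent kinase that relaxes smooth muscle, spanned 1.91-fold and was highest in P530 (8.35) and P524 (8.29).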

How the data were processed

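RNA of 12 cultures was measured on single-colour Illumina arrays. Of the 2 tables deposited by the authors, the one with intensity not yet normalized was used here, and their normalized intensity served as an alternative. How the beads were summarised, and the genome build, are not given in the sources used here. Background was corrected with normexp (offset 50), followed by quantile normalization and log2 (limma 3.58.1, R 4.3.3). The tables gave no detection p-values, so background was estimated by mirroring each array's values below the mode, and 26224 probes with p under 0.05 on at least 3 arrays were kept. Of 45281 probes, 34885 had 1 symbol, 18 several and 10378 none. The brightest kept probe stood for a gene. Other kept probes are given for Acta2, Mylk, Tpm1 and Tpm2, though not for every comparison.

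Group means were fitted to all arrays (lmFit and eBayes, 8 residual degrees of freedom), with Benjamini-Hochberg adjustment over 13300 genes and a threshold of 0.05. The code in the titles paired the arrays: deviations from the group means correlated at r = 0.59 to 0.93 in all 6 pairs, and each array correlated best with its partner. The paired fit (4 residual degrees of freedom for ligand, duplicateCorrelation with statmod 1.5.0 for genotype) is an alternative. Preparations were compared with an F test with 4 numerator degrees of freedom. The labels do not say that samples are separate animals, so p-values refer to the spread among these samples only, which may be technical, and the number of arrays limits precision. The scripts were tested on simulated data. Named are all members, up to 3 genes per related list with the smallest p, and the 5 genes most like the members' profile, without provisional names. Others are said to be chosen later. The members and lists were chosen with earlier results of these data known, so they support nothing independently. Other alternatives were no background correction, median scaling, other probe filters, the mean of a gene's probes, array weights, only the groups compared and leaving out each preparation.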

Additional observations from a re-analysis of the deposited data

Results flagged for a closer look

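By its brightest probe Tpm2 had ligand differences of opposite sign in the KO and WT pairs, and the test of a difference between genotypes did not pass. PDGF-B minus vehicle was -0.10, -0.28 and -0.14 in the KO pairs P524, P338 and P522, and 0.17, 0.09 and 0.15 in the WT pairs P11, P393 and P530, on the log2 scale. Every KO pair thus moved one way and every WT pair the other way, as it did for 1 of 10 members and for 2.86% of all genes tested. The mean response was -0.18 in KO cells and 0.14 in WT cells, a difference of -0.31 (limma adjusted p = 1). With the preparation as a block the difference was -0.31 ± 0.09 (SE), which did not pass the adjustment over 13300 genes (limma adjusted p = 0.999).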

How the results depend on the processing

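In the 7 genotype and ligand comparisons, 0 members passed under every alternative run. Of 1083 member values there, 0 were past the threshold and 113 had the opposite sign to the value reported, none of them called in either setting. Between preparations, 124 of 139 member values were past the threshold, and the count of members was 9 under each alternative except leaving out P338 or P522, where it was 8. Leaving out a preparation gave an F for Acta2 as low as 5.18 (without P338, adjusted p = 0.0595) and 5.27 (without P522, adjusted p = 0.0701), with fewer samples in the fit. The replicate block changed no call. The stricter filter, above background on all arrays, left Cnn1 out and kept 9 members.

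Over all genes, 0 to 49 passed in the genotype and ligand comparisons. The 49 were KO minus WT averaged over ligand without P522, against 2 with it, and the cause was not tested. Between preparations 3656 (without P524) to 6784 (without P11) genes passed, against 6063. KO minus WT averaged over ligand ran from -0.67 to 0.36 for Myh11. The array numbers, 3 a group, a probe near background (Cnn1) and one near the top of the scale (Acta2) limit what can be read.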
